A study of Mus musculus with 6 samples.

Results

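The genes of the creatine and calcium futile cycles were followed in brown adipose tissue (BAT) of mice with and without miR-22. The 10 genes were *Ckb*, *Ckmt1*, *Ckmt2*, *Gatm*, *Gamt*, *Slc6a8*, *Alpl*, *Atp2a2*, *Atp2a3* and *Ryr2*. They were chosen by name for their known role, with earlier results of these data known. Every array probe whose RefSeq annotation mapped to one of them was taken, which gave 18 probes out of 33767 probes matched to a gene and 56605 probes in all. Each of the 10 genes had at least 1 testable probe, 14 of the 18 probes could be tested, and 14711 genes were tested in all. The remaining 4 probes, 1 of *Ckb*, 2 of *Atp2a2* and 1 of *Ryr2*, are described below without a test.

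The study compared 3 wildtype (WT) mice with 3 miR-22 knockout (KO) mice. Both groups were male and 8 weeks old, and the KO mice came from the Jackson Laboratory and lacked miR-22 constitutively in every tissue, so that a difference in BAT need not arise in brown adipocytes. Total RNA of BAT was isolated with TRIzol, labeled with Cy3 and hybridized to Agilent mouse arrays with 1 dye and 1 array per sample. Housing temperature at the time of sampling is not given in the sources used here. The study describes its controls as littermates, but the labels do not say which mice share a litter or a batch, so the p-values measure the spread between these 6 samples, and the number of arrays limits the precision.

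Brown adipocytes produce heat by uncoupling protein in the inner mitochondrial membrane and, beside it, by cycles that spend ATP without net work. In the creatine cycle, a kinase transfers phosphate from ATP to creatine and a phosphatase removes it again, while creatine is made from arginine and glycine or taken up from blood. In the calcium cycle, a SERCA pump spends ATP to load calcium into the endoplasmic reticulum and a ryanodine receptor lets it leak back. Creatine kinases, SERCA pumps and ryanodine receptors are also core genes of striated muscle, where they serve contraction.

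The KO mice lack a microRNA encoded on chromosome 11 of GRCm38.p6, and both arms of its hairpin are shown because they are what the genotype removes. The sequences are those of RefSeq, on the plus strand at chr11:75463772-75463793 for the 3p arm and chr11:75463734-75463755 for the 5p arm. Capitals mark the seed, bases 2 to 8, through which a microRNA pairs with its targets.
miR-22-3p: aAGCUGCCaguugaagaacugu
miR-22-5p: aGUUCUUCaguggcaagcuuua
The array does not measure these mature RNAs. Its probe for the host transcript, *Mir22hg*, had scaled log2 signals of 1.20, 1.69 and 1.22 in WT mice and 2.02, 2.11 and 2.23 in KO mice. All KO values were above all WT values. The difference was 0.75 (SE 0.18, adjusted p = 0.108 from limma), which passed the unadjusted threshold of the study's methods. Where this probe lies relative to the deleted part of the gene is not given in the sources used here, so its level does not check the genotype. Signals throughout are log2 of the spot signal relative to the 75th percentile of all spots on its array, so that 0 is a spot at that percentile, and levels of different probes are not comparable.

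The creatine transporter was the member that separated the groups. *Slc6a8* encodes the sodium-dependent carrier that brings creatine into cells, and lies at chrX:73673133-73682502 in GRCm38.p6. Its brighter probe gave scaled log2 signals of 1.55, 1.63 and 1.68 in WT mice (mean 1.62 ± 0.07, SD, n = 3) and 2.05, 2.21 and 2.27 in KO mice (mean 2.17 ± 0.11, SD, n = 3). Every KO mouse lay above every WT mouse, and the gap between the groups was wider than the spread within either. The difference of 0.55 on the log2 scale (SE 0.13, 95% confidence interval 0.24 to 0.87) corresponds to 1.47-fold (1.18 to 1.82). *Slc6a8* passed an unadjusted p under 0.05 in limma, but not the adjustment over all 14711 genes (adjusted p = 0.114). The dimmer probe of the gene gave -0.82, -1.31 and -0.62 in WT mice, the last from a marked spot, and -0.11, 0.07 and -0.14 in KO mice. Its groups did not overlap either, with a difference of 1.01 (SE 0.22, adjusted p = 0.121 over all probes in limma). A marked spot is one that the scanner software called not uniform or a population outlier.

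The call on *Slc6a8* ended with the slide row as a block, where the difference was 0.49. It also ended when a change of at least 1.5-fold was asked for. All 6 arrays were on 1 slide, with WT mice 1 and 2 in one row and WT mouse 3 and the KO mice in the other. The block fit therefore set the KO mice against WT mouse 3 alone. The mean of 10 white adipocyte markers was -2.01, -1.92 and -1.97 in WT mice and -1.82, -1.59 and -1.14 in KO mice. The exact permutation p was 0.1, two-sided, the smallest that 3 against 3 allows. Of the 10 markers, 9 were above background on each array and *Hoxc10* on none. *Hoxc10* was at -8.06, -8.37 and -6.73 in WT mice and -6.82, -8.17 and -7.06 in KO mice. The groups separate only with *Hoxc10* in the mean, so the separation does not describe the detected markers. The mean of 8 lymphocyte markers ranged from -5.33 to -4.93 in WT mice and from -4.86 to -4.47 in KO mice (exact permutation p = 0.1). Of these markers, 4 to 6 were above background on an array and *Ms4a1* on none, and all 8 entered the mean. The part of either cell type in the *Slc6a8* difference was not tested. In bulk tissue, more cells of a type and more RNA per cell cannot be told apart.

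**Figure D1:**
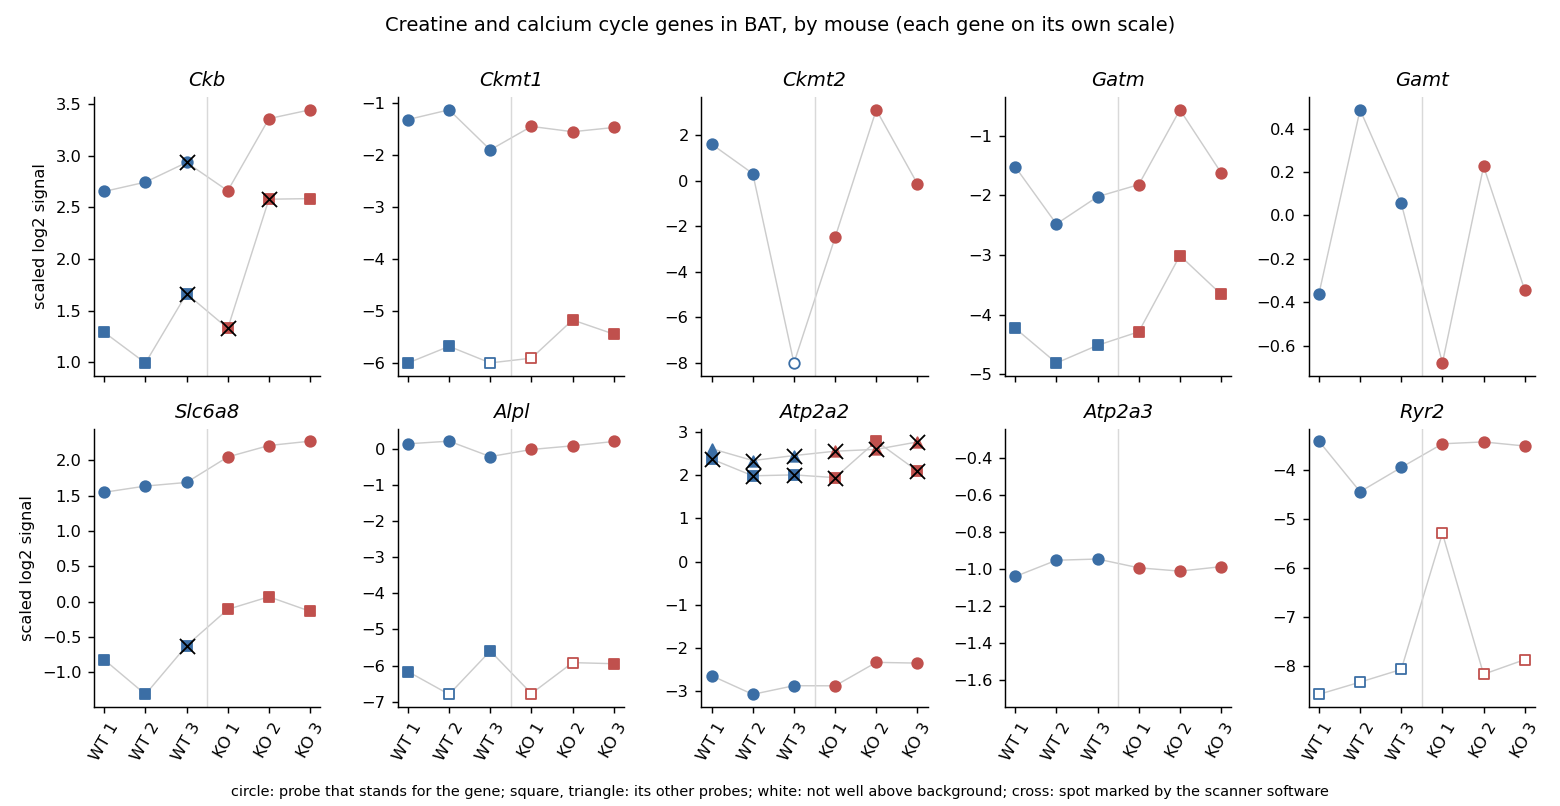
Scaled log2 signal (y axis, a separate scale for each gene) of every probe of the 10 genes in each mouse (x axis), WT in blue and KO in red. Circles are the probe that stands for the gene, squares and triangles are its other probes, white symbols are spots not well above background and crosses are marked spots. Both *Slc6a8* probes are higher in each KO mouse, while *Atp2a3* stays between -1.04 and -0.95 in all 6 mice.

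Read over the 10 members, 1 of 10 (*Slc6a8*) was higher in KO mice at an unadjusted p under 0.05 in limma, where 10.0% of all tested genes were. None of the 10 was lower, where 8.82% of all tested genes were. With adjustment over all genes no member passed in limma or in any of the other tests run, and 0.184% of all genes did in limma. Among the 9 members with 3 unmarked values per group, 1 had all KO values above all WT values (14.2% of all such genes) and none had all KO values below (14.7%). The member counts were thus close to those of the array as a whole. The difference was below 0 for 3 of the 10, and the median over the members was 0.40, beside -0.03 over all tested genes. That median moved with the WT 3 sample and was 0.17 without it, when 5 of 10 were below 0, and was 0.14 with the skeletal muscle markers as a covariate.

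**Figure D2:**
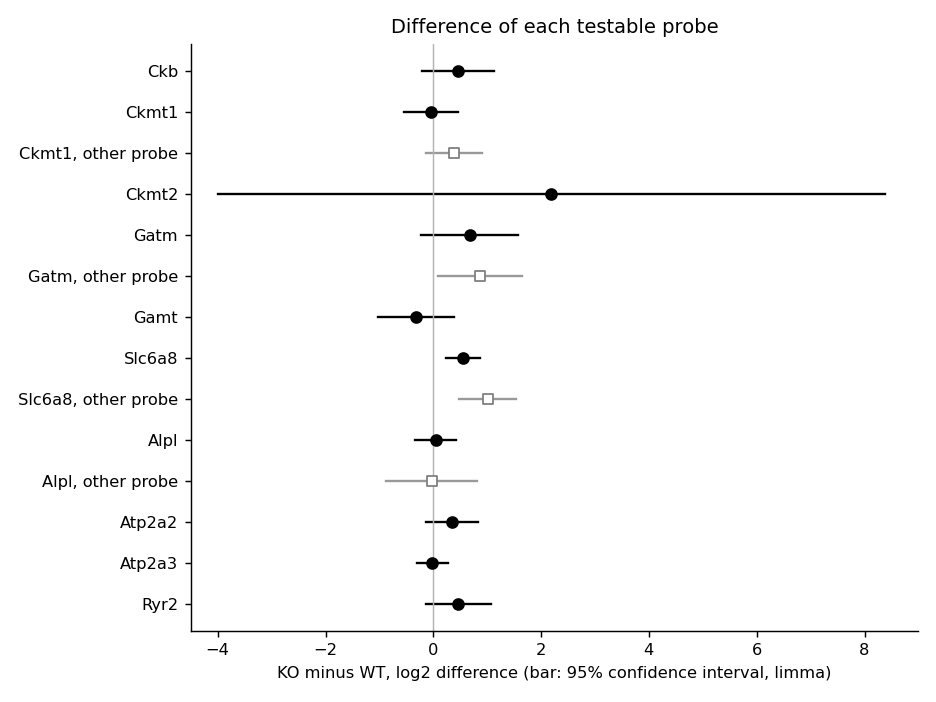
KO minus WT difference on the log2 scale (x axis) of the 14 testable probes, with bars for the 95% confidence interval from limma. Filled circles are the probe that stands for the gene and open squares are other probes. The intervals of both *Slc6a8* probes and of the dimmer *Gatm* probe lie above 0, and that of *Ckmt2* reaches from -3.99 to 8.37.

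The creatine kinases differed from each other in how they varied. *Ckb* encodes the brain-type kinase, the form implicated in the creatine cycle of brown fat, and lies at chr12:111669355-111672338 in GRCm38.p6. Its testable probe gave 2.65, 2.74 and 2.93 in WT mice, the last from a marked spot, and 2.66, 3.36 and 3.44 in KO mice. KO mice 2 and 3 lay above all WT mice and KO mouse 1 lay among them. The difference was 0.46 (SE 0.27, 95% confidence interval -0.21 to 1.12, adjusted p = 0.406 in limma) and did not pass either threshold. The other probe, with 3 marked spots and therefore untested, likewise had KO mice 2 and 3 as the highest, at 1.29, 0.99 and 1.66 in WT mice and 1.33, 2.58 and 2.58 in KO mice. Without the first KO mouse the *Ckb* difference was 0.70 and passed the unadjusted threshold (adjusted p = 0.199), and it did so too after quantile normalization, at 0.65 (adjusted p = 0.254).

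*Ckmt1* encodes the ubiquitous kinase of the mitochondrial intermembrane space. Its brighter probe gave -1.32, -1.14 and -1.91 in WT mice and -1.46, -1.56 and -1.48 in KO mice, so the KO values lay inside the WT range. The difference was -0.04 (SE 0.21, 95% confidence interval -0.55 to 0.46, adjusted p = 0.925 in limma). A dimmer probe, above background on 4 of 6 arrays, gave a difference of 0.38 (SE 0.22, adjusted p = 0.430).

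*Ckmt2*, the sarcomeric mitochondrial kinase at chr13:91853386-91876923, varied between mice more than any other member. Its spot signal was 6035, 1783 and 6.2 in WT mice and 450.0, 22800 and 1451 in KO mice. On the scaled log2 scale these were 1.61, 0.31 and -8.02 against -2.50, 3.11 and -0.14, a span of 11.13 units, and the lowest, WT mouse 3, was not well above background. The groups overlapped throughout. The mean difference of 2.19 (SE 2.61, 95% confidence interval -3.99 to 8.37, adjusted p = 0.666 in limma) turned to -0.80 without WT mouse 3.

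The profile of *Ckmt2* over the 6 mice was compared with that of every other gene detected on all arrays, each centred on its mean, by the root mean square difference. The nearest were *Tnni2* (0.926), *Tnnt3* (0.985) and *Myh8* (1.12), a troponin I and a troponin T of fast skeletal muscle and the perinatal myosin heavy chain. Among all tested genes, a pool chosen after the values were seen, the nearest were the sarcomere genes *Myot* (0.306) and *Mybpc1* (0.332) and *Trdn* (0.339), which encodes triadin of the muscle calcium release unit. A set of 26 skeletal muscle markers that held no creatine kinase or calcium pump moved the same way. Its mean was 2.21, 1.54 and -4.26 in WT mice and -0.57, 3.31 and 1.36 in KO mice. All 26 markers were above background in 4 mice, 24 in KO mouse 1 and 16 in WT mouse 3, where *Myh4*, *Ttn* and *Pvalb* were at -8.06, -8.01 and -7.49. The group difference of this mean was 1.54 (exact permutation p = 0.7, two-sided). With the marker mean as a covariate the *Ckmt2* difference was -0.059 (SE 0.20, adjusted p = 0.897). By contrast, the 13 brown adipocyte markers were above background in every mouse and their mean ranged from 2.46 to 3.19, so RNA of the labelled tissue was measured in all 6 samples.

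**Figure D3:**
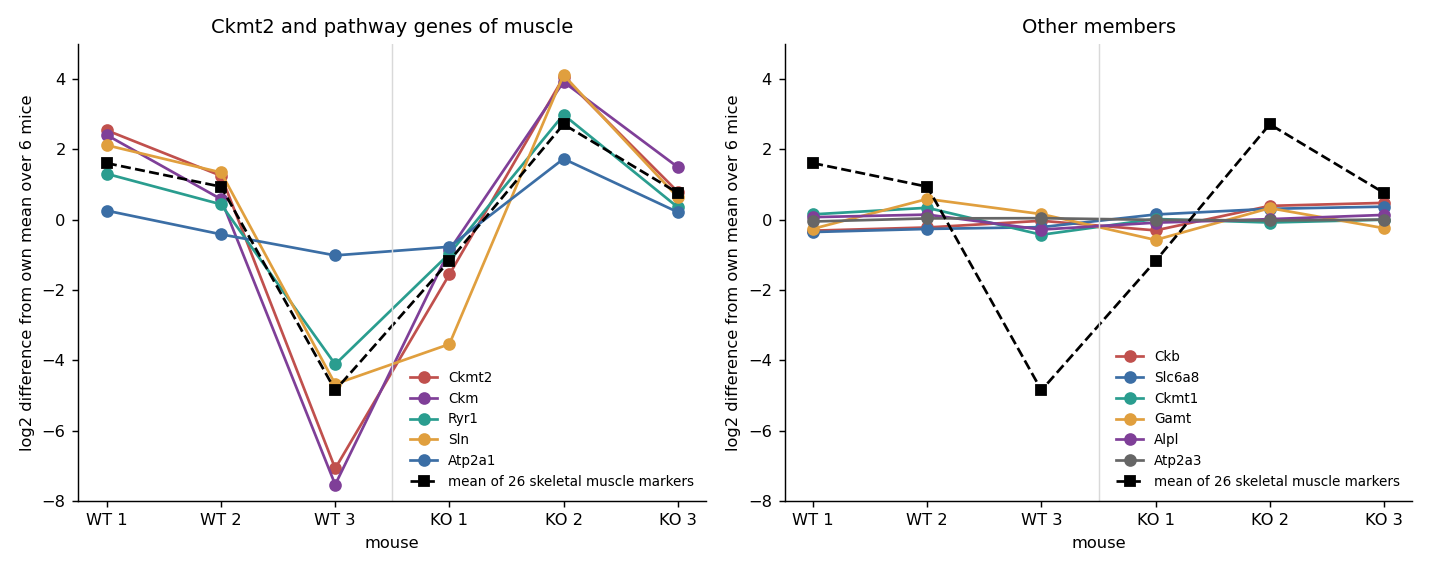
Scaled log2 signal of each mouse (x axis), given as the difference from the gene's own mean over the 6 mice (y axis, log2 units). The dashed line with squares is the mean of 26 skeletal muscle markers. On the left, *Ckmt2*, *Ckm*, *Ryr1* and *Sln* are lowest in WT mouse 3 and highest in KO mouse 2, as is the marker mean. *Atp2a1* follows in a narrower range. On the right, 6 other members, *Ckb*, *Slc6a8*, *Ckmt1*, *Gamt*, *Alpl* and *Atp2a3*, vary by less than the markers do. *Gatm*, *Atp2a2* and *Ryr2* are not drawn.

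The promoters of *Ckmt2* and *Ckb* are shown because the profile of the first over the mice followed the muscle markers and that of the second did not. Each is the 250 bases before the transcription start in RefSeq, 5′ to 3′ on the strand of the gene, which is the minus strand for both. The windows are chr13:91876886-91877135 and chr12:111672339-111672588 in GRCm38.p6. Capitals mark matches on either strand to 4 short motifs that do not overlap here. CAGCTG is the form of the E-box bound by the muscle factor MyoD. TATAAA is the core of the TATA box, which positions the polymerase near the start. The CCAAT box and GGGCGG, the core of the GC box, are common to many promoters.
Ckmt2: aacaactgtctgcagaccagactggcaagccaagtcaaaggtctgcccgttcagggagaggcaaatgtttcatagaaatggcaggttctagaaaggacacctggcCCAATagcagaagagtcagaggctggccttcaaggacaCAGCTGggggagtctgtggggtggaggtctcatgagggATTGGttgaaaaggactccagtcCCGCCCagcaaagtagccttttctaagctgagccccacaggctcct
Ckb: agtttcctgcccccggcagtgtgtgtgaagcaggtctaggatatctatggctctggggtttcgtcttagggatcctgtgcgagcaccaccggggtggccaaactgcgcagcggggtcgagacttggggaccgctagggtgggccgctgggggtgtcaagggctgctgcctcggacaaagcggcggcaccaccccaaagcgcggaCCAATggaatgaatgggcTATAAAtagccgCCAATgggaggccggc
The E-box was found in the promoter of *Ckmt2* and not in that of *Ckb*, and the TATA box in that of *Ckb* and not in that of *Ckmt2*. The E-box was also in the windows of *Ckmt1* and *Alpl*, whose values varied by less than the muscle markers did. Over all 32851 RefSeq promoter windows of 300 bases, which run to 50 bases past the start, 16.3% held the E-box, 13.6% the TATA box, 37.4% the CCAAT box and 35.7% the GC box. The cAMP response element TGACGTCA was in 1.79% of all windows. The element TCAAGGTCA, bound by estrogen-related receptors, was in 0.423%. Neither was in any of the 10 promoter windows that the table held for 8 members. *Slc6a8* and *Atp2a2* were not among them. A match describes letters and not a bound site.

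The 2 genes of creatine synthesis gave differences of opposite sign, and neither passed a threshold on the probe that stood for it. *Gatm* encodes the amidinotransferase that forms guanidinoacetate from arginine and glycine. The brighter probe gave -1.52, -2.48 and -2.02 in WT mice and -1.82, -0.57 and -1.62 in KO mice. KO mouse 2 was the highest of the 6 and the groups overlapped. The difference was 0.67 (SE 0.38, 95% confidence interval -0.23 to 1.58, adjusted p = 0.381 in limma). The dimmer *Gatm* probe gave -4.23, -4.81 and -4.52 against -4.29, -3.01 and -3.66, with a difference of 0.87 (SE 0.33) that passed the unadjusted threshold at the level of probes but not the adjusted one (adjusted p = 0.261). Here too KO mouse 1 lay below a WT mouse. *Gamt* encodes the methyltransferase that completes creatine. Its values were -0.36, 0.49 and 0.06 in WT mice and -0.68, 0.23 and -0.34 in KO mice, and the difference of -0.33 (SE 0.30, 95% confidence interval -1.03 to 0.38, adjusted p = 0.571) did not pass.

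*Alpl* encodes the tissue-nonspecific alkaline phosphatase, described in brown fat mitochondria as a phosphatase of phosphocreatine. The scaled log2 signals were 0.13, 0.21 and -0.22 in WT mice and -0.02, 0.08 and 0.20 in KO mice, with the KO range inside that of the WT mice. The difference was 0.04 (SE 0.16, 95% confidence interval -0.34 to 0.43, adjusted p = 0.894 in limma), so that changes of over 1.35-fold in either direction lay outside the interval. A dim second probe, above background on 3 arrays, gave -0.03 (SE 0.36).

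Among the calcium pumps, *Atp2a3* was the steadiest member. This gene encodes SERCA3, known from endothelial, epithelial and blood cells. Its values were -1.04, -0.95 and -0.95 in WT mice and -0.99, -1.01 and -0.99 in KO mice, a span of 0.09 units. The difference was -0.02 (SE 0.12, 95% confidence interval -0.30 to 0.27, adjusted p = 0.943 in limma). *Atp2a2* encodes SERCA2, whose SERCA2b form is the pump of the calcium cycle in beige fat. Both of its bright probes carried marked spots on 5 of 6 arrays and could not be tested. With the marked spots kept, one gave 2.38, 1.99 and 2.01 in WT mice and 1.95, 2.79 and 2.10 in KO mice, and the other 2.62, 2.34 and 2.46 against 2.56, 2.60 and 2.77. The groups overlapped on both, with differences of 0.15 (SE 0.25) and 0.17 (SE 0.15). The dim probe that could be tested gave -2.65, -3.08 and -2.88 against -2.88, -2.34 and -2.35, a difference of 0.34 (SE 0.20, 95% confidence interval -0.14 to 0.83, adjusted p = 0.397). Without the first KO mouse that difference was 0.52 and passed the unadjusted threshold (adjusted p = 0.271).

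*Ryr2* encodes the ryanodine receptor through which calcium returns to the cytosol. Its tested probe was dim, at -3.40, -4.44 and -3.94 in WT mice and -3.46, -3.42 and -3.50 in KO mice. The KO values lay close together and WT mouse 1 lay above them. The difference was 0.47 (SE 0.26, 95% confidence interval -0.14 to 1.07, adjusted p = 0.367 in limma). It was 0.73 without WT mouse 1 and then passed the unadjusted threshold (adjusted p = 0.232). The second *Ryr2* probe was not well above background on any array.

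The wider creatine pathway was read from a list of 23 genes of arginine and methyl supply, adenine nucleotide handling and transport. Of these, 16 could be tested, 3 were higher in KO mice at an unadjusted p under 0.05 in limma and 1 was lower, with a median of -0.05, beside the 10.0% and 8.82% of all genes given above. Without WT mouse 3 the counts were 2 higher and 3 lower. The 3 that rose were *Slc16a12*, a creatine carrier of the monocarboxylate transporter family, by 1.42 (SE 0.43, adjusted p = 0.164), *Shmt1*, the cytosolic serine hydroxymethyltransferase, by 0.75 (adjusted p = 0.161), and *Ass1*, argininosuccinate synthase, by 0.39 (adjusted p = 0.202). The call on *Ass1* held in 9 of 20 other settings and that on *Shmt1* in 15 of 19. The *Shmt1* value of 0.75 rests on 2 unmarked spots per group. A dimmer second *Shmt1* probe differed by 0.52 (SE 0.23) and did not pass the unadjusted threshold at the level of probes. That probe stood for the gene in each setting where the call was lost, with the lowest value, 0.30, without KO mouse 3. *Slc16a12* was at -5.31, -6.59 and -5.24 in WT mice and -4.48, -3.65 and -4.74 in KO mice, a dim probe above background on 5 arrays. The difference was 0.50 after normexp and 0.98 without WT mouse 2. The gene no longer passed in the methods' t-test or with the slide row as a block. The block value, which sets the KO mice against WT mouse 3 alone, was 0.95.

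*Phospho1*, a phosphatase of phosphocholine and phosphoethanolamine that has been linked to the creatine cycle of brown fat, was the gene of the list that fell. Its values were -2.60, -2.45 and -2.46 in WT mice and -3.01, -3.12 and -2.96 in KO mice, and the difference was -0.52 (SE 0.13, adjusted p = 0.120). After normexp it was -0.29 and no longer passed. *Ckm*, the cytosolic kinase of muscle, was at 1.96, 0.14 and -7.98 in WT mice and at -1.32, 3.48 (a marked spot) and 1.05 in KO mice, the order of the muscle markers except for WT mouse 2 and KO mouse 3. Its difference of 1.83 (SE 2.88) did not pass, and was 1.0 with the muscle covariate, past the unadjusted threshold (adjusted p = 0.228). Bright mitochondrial genes of the list, such as *Slc25a4*, *Slc25a5* and *Vdac1*, were marked too often to be tested. With marked spots kept, 22 genes could be tested, 3 were higher and 1 lower, and the median was -0.21.

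The calcium cycling list held 54 genes, of which 39 could be tested. In KO mice, 2 were higher and 3 were lower at an unadjusted p under 0.05 in limma, beside 10.0% and 8.82% of all tested genes, and the median was 0.11, which turned to -0.16 without WT mouse 3. *Pln*, encoding phospholamban, the inhibitor of SERCA2 best known from heart, was at -4.26, -5.06 and -4.41 in WT mice and -5.84, -5.12 and -5.53 in KO mice. All KO values lay below the WT values, though WT mouse 2 and KO mouse 2 were close. The difference was -0.92 (SE 0.27, adjusted p = 0.158), or -0.54 after normexp. The probe was dim, with spot signals of 103, 43 and 76 in WT mice and 44, 76 and 35 in KO mice. Its spot in KO mouse 1 was not well above background. *Smdt1*, encoding a small subunit of the mitochondrial calcium uniporter, fell by 0.55 on the log2 scale (adjusted p = 0.248), while *Mcub*, its inhibitory pore subunit, rose by 0.80 (SE 0.20, adjusted p = 0.127) with a second probe at 0.71. The call on *Smdt1* held in 10 of 16 other settings, and its value after quantile normalization was -0.27. With the slide row as a block, which sets the KO mice against WT mouse 3 alone, *Mcub* was 0.56 and no longer passed. *Atp2b2*, a calcium pump of the plasma membrane, was dim but rose by 0.71 (SE 0.14, adjusted p = 0.077). After normexp background correction this was 0.12 and no longer passed. *Atp2c1*, the pump of the Golgi, fell by 0.40 on its brightest probe (adjusted p = 0.221), and its other probes gave -0.0049 and -0.12. That call held in 10 of 20 other settings. With marked spots kept, 46 genes of the list could be tested, and 7 were lower and 2 higher, beside 1794 lower and 1526 higher of 16110 genes in all.

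Calcium genes of muscle followed the muscle markers. *Sln*, the sarcolipin that uncouples SERCA in muscle, was at -1.28, -2.05 and -8.07 in WT mice and -6.94, 0.72 and -2.75 in KO mice. *Ryr1*, the ryanodine receptor of skeletal muscle, was at 0.60, -0.27 and -4.82 against -1.67, 2.28 and -0.35. Both were lowest in WT mouse 3 and highest in KO mouse 2, with differences of 0.81 (SE 2.35) and 1.58 (SE 1.56). *Atp2a1*, the SERCA1 of fast muscle, was at -1.10, -1.77 and -2.37 against -2.13, 0.38 and -1.14. It stayed well above background in WT mouse 3, unlike *Sln* and *Ckmt2*, and its difference was 0.78 (SE 0.63, adjusted p = 0.520). *Ryr3* was not well above background on any array. With the muscle marker mean as a covariate, the differences of *Sln*, *Ryr1* and *Atp2a1* were -1.13, 0.25 and 0.37, and none passed the unadjusted threshold.

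A list of 17 uncoupling genes and regulators of the futile cycles held 11 testable genes, of which 4 were higher and 1 lower in KO mice at an unadjusted p under 0.05 in limma, beside 10.0% and 8.82% of all tested genes. With marked spots kept, all 17 could be tested, and 4 were higher and 4 lower. *Ucp2*, a relative of *Ucp1* found in many cell types, was at -1.28, -0.95 and -1.03 in WT mice and -0.18, 0.41 and 0.38 in KO mice. It rose by 1.29 (SE 0.20, adjusted p = 0.060), with a second probe at 1.73. *Ucp3* rose by 1.19 (SE 0.21, adjusted p = 0.094) on 2 unmarked spots per group, and by 0.89 (SE 0.22) with marked spots kept. *Adra1a*, an alpha-1 adrenergic receptor that signals through calcium, rose by 0.81 (SE 0.23, adjusted p = 0.162) and its second probe differed by 0.80. The estrogen-related receptors, regulators of mitochondrial genes, went separate ways, with *Esrrb* higher by 1.05 (SE 0.30, adjusted p = 0.147), *Esrra* at -0.53 (SE 0.20, adjusted p = 0.235) and *Esrrg* at -0.04. The call on *Esrra* held in 11 of 17 other settings and that on *Esrrb* in all 20. *Ucp1* itself was marked on all 6 arrays and could not be tested. With the marked spots kept it was at 5.51, 5.85 and 5.53 in WT mice and 5.10, 5.0 and 5.65 in KO mice, which overlap, with a difference of -0.38 (SE 0.22, adjusted p = 0.402). With quantile normalization as well, chosen after seeing the data, it was -0.092 (SE 0.099). Quantile normalization gives probes of equal rank the same value on each array, so a small difference of a very bright probe is partly built in. Before scaling, the *Ucp1* spot signals were 90298, 82588 and 73801 in WT mice and 87065, 84184 and 80346 in KO mice. The size of the difference therefore depends on the scaling. No gene of the 3 lists passed the adjusted threshold in limma as reported. Under other settings *Ucp2* passed it after normexp background correction (adjusted p = 0.0474), with probes above background on all arrays (0.0289), as the mean of its probes (0.0441) and with a trended and robust eBayes (0.0128). *Ucp3* passed it with the latter (0.0208), and *Atp2b2* with probes above background on all arrays (0.0479).

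**Figure D4:**
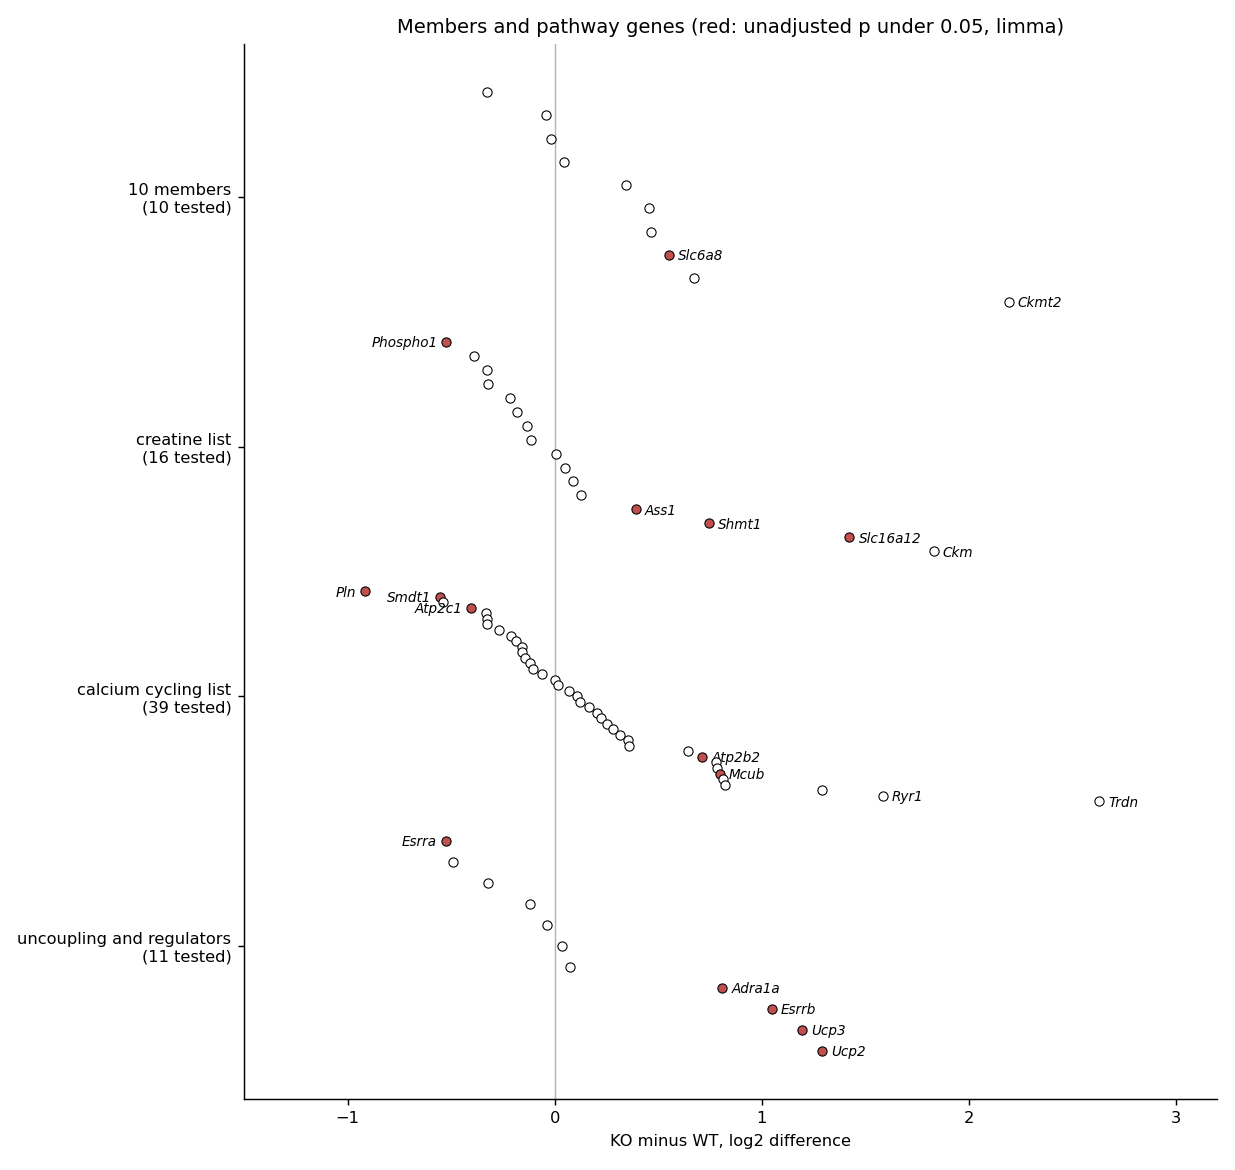
KO minus WT difference on the log2 scale (x axis) of each tested gene of the 10 members and of the 3 pathway lists, ordered by value within a list. Red points passed an unadjusted p under 0.05 in limma and white points did not. The white points furthest to the right, *Ckmt2*, *Ckm*, *Ryr1* and *Trdn*, are genes of muscle with large spread between mice.

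Across the array, 55.8% to 66.5% of spots were well above background and none was saturated. The share of marked spots was 17.1% in WT mouse 3 and 15.1% in KO mouse 1, and 4.87% to 6.12% in the other 4 mice. Apart from skeletal muscle, the means of the 11 other marker lists varied by at most 1.05 log2 units over the mice. Under the other settings of the analysis, *Slc6a8* stayed between 0.49 and 0.71 and passed the unadjusted threshold in 19 of 20 settings that refitted the difference or its test. The sign was constant over all settings in which they could be tested for *Ckb*, *Gatm*, *Atp2a2* and *Ryr2*, above 0, and for *Gamt* and *Atp2a3*, below 0. It turned for *Ckmt1*, *Ckmt2* and *Alpl*. Where marked spots were kept, a bright probe stood for *Atp2a2* in place of the dim one.

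**Figure D5:**
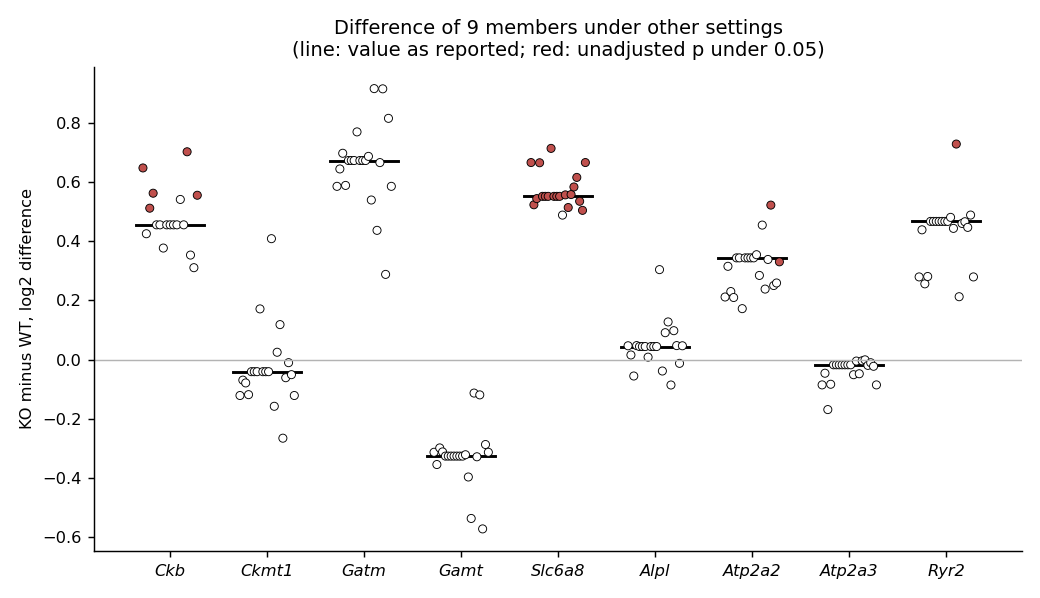
KO minus WT difference on the log2 scale (y axis) of 9 members under each other setting of the analysis (points) and as reported (line). Red points passed an unadjusted p under 0.05. *Ckmt2*, whose values reach from -0.80 to 8.18, is left out so that the others can be seen, and *Slc6a8* lies between 0.49 and 0.71.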

How the data were processed

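BAT of 3 WT and 3 KO mice was measured on Agilent mouse arrays, and samples were grouped by their labels. Per the file headers, the authors deposited intensity values from Agilent Feature Extraction 11.5.1.1, while the submitters' processing notes name version 10.7. The deposited signal was corrected for background by the software and was not scaled between arrays. Log2 values that the authors deposited as well, normalized between arrays in a way not given in the sources used here, served as an alternative.

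Signals were scaled to the 75th percentile of each array, over all spots but controls, before log2 was taken. Spots that were marked did not enter. Tests were made on probes well above background on at least 3 arrays with at least 2 unmarked values per group, and the brightest such probe stood for a gene. KO was set against WT with limma 3.58.1 (lmFit, eBayes; R 4.3.3, jsonlite 2.0.0 and the data.table package, version 1.17.8), two-sided. The threshold was 0.05 on the unadjusted p, that of the study's methods, and on the p adjusted by Benjamini-Hochberg over all tested genes. The scripts were tested on simulated data. The study's test for the arrays, SAM, was an alternative because 3 arrays per group call for a shared estimate of the spread.

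Members and gene lists were chosen with earlier results of these data known. Named were all members with all probes, *Mir22hg*, up to 4 genes per list and direction with the smallest unadjusted p under 0.05, a few fixed pathway genes, and the 3 genes nearest in profile to a member that spanned at least 2 log2 units. Of 54 calcium genes, 50 were on the array. Sample numbers follow the order of deposit and pair no mice. Alternatives were quantile normalization, the median of probes detected on all arrays, normexp background correction (offset 50, on the median spot signal), the authors' table, no filter on dim probes and a filter on all 6 arrays, marked spots kept, the mean of probes, all probes counted, SAM, the methods' t-test, a trended and robust eBayes, a change of at least 1.5-fold, the slide row as a block, the skeletal muscle mean as a covariate, and each array left out in turn.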

Additional observations from a re-analysis of the deposited data

How the results depend on the processing

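No member was lower in KO mice and none passed the adjusted threshold under any alternative run. The count of members that were higher, 1 of 10 as reported, was 2 after quantile normalization, after normexp and in the authors' processed values, where *Ckb* joined *Slc6a8*. Over all genes, 1169 of 14711, 893 of 14711 and 1146 of 13383 were higher in these settings, in that order. The member count was 0 when a change of at least 1.5-fold was also asked for, and 3 of 14 with all probes counted. For neither of these is a count over all genes given. Keeping marked spots together with quantile normalization, chosen after seeing the data, gave 3 (*Slc6a8*, *Ckb* and *Atp2a2*), beside 1291 of 16110 genes in all. There *Atp2a2* was read from a bright probe marked on 5 of 6 arrays, and not from the dim probe reported above. Leaving out each array in turn gave 1 to 3, with *Ryr2* added without WT replicate 1, and *Ckb* and *Atp2a2* without KO replicate 1. Over all genes, 1067 of 12697 were higher without WT replicate 1 and 1407 of 14518 without KO replicate 1. With the slide row as a block *Ckb* could not be fitted, the 1 member that passed was *Ckmt2* at 8.18 (adjusted p = 0.327) and not *Slc6a8*, and that fit rests on WT replicate 3 alone for its row. *Ckb* also could not be tested without WT replicate 1 or 2.

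The sign turned for members whose difference was small or followed muscle. *Alpl* was -0.056 after normexp, -0.039 with the muscle covariate and -0.086 to 0.13 leaving out arrays. *Ckmt1* was 0.17 as the mean of its probes, 0.41 with the row block and -0.27 to 0.12 leaving out arrays. *Ckmt2* was -0.059 with the muscle covariate and -0.80 to 4.01 leaving out arrays. *Sln* was -1.13 with the muscle covariate and -1.33 to 2.78 leaving out arrays, *Ckm* -1.18 to 3.79 and *Ryr1* -0.078 to 2.63, with the lowest value of each without WT replicate 3. The cause was not tested. Over all genes, 1297 were lower and 1476 higher as reported, against 1582 and 1146 in the authors' processed values and 1321 and 893 after normexp. Over all alternatives, the creatine list held 0 to 3 lower and 1 to 4 higher genes, the calcium list 1 to 7 and 1 to 4, and the uncoupling list 0 to 4 and 2 to 6. No paired analysis was possible because the labels give no numbers that pair the mice. Dim probes, such as those of *Ryr2*, *Slc16a12* and *Pln*, lie near background. Bright ones, such as those of *Atp2a2* and *Ucp1*, were often marked. Both limit what these arrays show of them.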
